A study of Mus musculus with 6 samples.

Results

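The comparison set the repressive histone mark H3K27me3 against the active mark H3K27ac over the genes of the mouse embryo at E11.5, midway through gestation. It used 2 of the 6 sections of the series, 1 for each mark, and the 18653 genes held by both. Another embryo section, profiled for H3K4me3, served as a readout that the ratio did not use. All 3 sections were labelled as wild-type whole embryo, were cut at 16 µm from frozen tissue and were fixed on the array with paraformaldehyde. The labels do not say whether they came from the same embryo or the same plane. Each spot of the array is a small region of tissue that can hold several cells of different types. Spots of 1 section are not replicates, so with 1 section per mark no test between the marks was possible, and all differences are given by size. Intervals are exact 95% intervals that cover counting error only.

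H3K27me3 and H3K27ac sit on the same lysine of histone H3 and exclude each other on a single histone tail. H3K27me3 is written by the Polycomb complex PRC2 and is known for covering developmental regulators, Hox genes above all, in cells that do not use them. H3K27ac is written by the acetyltransferases p300 and CBP at promoters and enhancers in use, and H3K4me3 marks promoters, including many that carry H3K27me3. In the assay an antibody bound to the mark brings a transposase fused to protein A, which cuts the marked chromatin and joins the fragments to the barcodes of the spot.

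The H3K27me3 section held 749650 recovered reads over 254 spots, with a median of 2596.5 per spot, and the H3K27ac section 548923 reads over 251 spots, with a median of 1972. The H3K4me3 section held 403483 reads over 248 spots. Reads were sparse per gene, with a median of 14 reads in the H3K27me3 section and 12 in the H3K27ac section. The numbers were recovered from the deposited values, and sums of 74 genes (H3K27me3) and 60 genes (H3K27ac) are lower bounds, because the highest counts within a spot could not be decoded. For each gene the mean number of reads per spot was divided by the section's mean over the shared genes, which gives its relative level, and the log2 ratio was taken as H3K27me3 over H3K27ac after 0.1 had been added to both levels. A positive ratio means a higher level under H3K27me3. In a section that mixes cell types, fewer cells of a type and less of the mark per cell cannot be told apart.

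The labelled tissue was checked with 33 markers of heart, liver, red cells, neural tube, somites, limb and endothelium, of which 32 were held. Their reads ran between 2 and 359 in the H3K27me3 section, with a median of 16.5, and between 1 and 208 in the H3K27ac section, with a median of 14.5. Of the 32 markers held 3 had a ratio of at least 1 and 1 of at most -1, where 10.4% and 14.1% of all shared genes did. The albumin gene Alb had 3 reads in each section. The most reads under H3K27me3 were those of the red cell genes Hba-a1, with 359, and Slc4a1, with 301.

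The promoters of some of the genes with the most lopsided reads are shown first, because the genes at both ends include promoters rich and poor in CG pairs. A window runs over 300 bases, from 250 before the start of the gene to 50 after it, from RefSeq with build GRCm38.p6, in the direction of the gene, and CG pairs are in capitals. The deposited values are per gene, and which bases of a gene the reads fell on is not given. Pold2 (chr11:5878207-5878506, minus strand) and Cntn3 (chr6:102464618-102464917, minus strand) are the genes with 30 and 0 CG pairs at the H3K27me3 end. Lce1i (chr3:92778850-92779149, minus strand), with 0, and the facing genes Septin10 (chr10:59221451-59221750, minus strand), with 30, and Sowahc (chr10:59221672-59221971, plus strand), with 31, are from the H3K27ac end.
Pold2: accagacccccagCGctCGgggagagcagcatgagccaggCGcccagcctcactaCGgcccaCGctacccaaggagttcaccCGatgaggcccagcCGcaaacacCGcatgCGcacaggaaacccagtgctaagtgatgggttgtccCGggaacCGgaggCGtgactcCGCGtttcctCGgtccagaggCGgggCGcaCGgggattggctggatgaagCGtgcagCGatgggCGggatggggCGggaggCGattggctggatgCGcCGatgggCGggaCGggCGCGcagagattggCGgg
Cntn3: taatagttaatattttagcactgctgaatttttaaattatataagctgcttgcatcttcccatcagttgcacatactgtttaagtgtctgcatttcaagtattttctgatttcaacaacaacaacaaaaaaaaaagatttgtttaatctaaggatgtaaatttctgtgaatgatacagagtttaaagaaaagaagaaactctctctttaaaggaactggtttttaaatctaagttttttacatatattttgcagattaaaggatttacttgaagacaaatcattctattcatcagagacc
Lce1i: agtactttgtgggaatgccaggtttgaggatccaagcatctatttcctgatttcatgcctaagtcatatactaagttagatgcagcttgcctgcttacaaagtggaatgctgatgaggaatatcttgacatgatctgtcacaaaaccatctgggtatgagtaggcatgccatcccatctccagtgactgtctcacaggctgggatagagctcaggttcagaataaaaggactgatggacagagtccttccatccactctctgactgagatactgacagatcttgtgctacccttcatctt
Septin10: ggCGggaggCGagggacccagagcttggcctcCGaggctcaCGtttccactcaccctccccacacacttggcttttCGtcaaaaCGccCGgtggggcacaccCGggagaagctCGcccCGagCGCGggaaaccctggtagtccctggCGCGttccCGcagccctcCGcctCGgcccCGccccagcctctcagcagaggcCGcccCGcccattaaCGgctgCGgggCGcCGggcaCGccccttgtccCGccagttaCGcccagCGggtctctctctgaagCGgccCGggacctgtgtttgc
Sowahc: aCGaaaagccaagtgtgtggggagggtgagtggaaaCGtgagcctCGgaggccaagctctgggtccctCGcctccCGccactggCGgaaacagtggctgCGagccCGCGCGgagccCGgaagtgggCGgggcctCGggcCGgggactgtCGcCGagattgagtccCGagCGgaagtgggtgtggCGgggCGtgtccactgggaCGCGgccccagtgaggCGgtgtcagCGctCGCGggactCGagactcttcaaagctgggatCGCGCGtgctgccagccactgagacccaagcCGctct
The last pair of windows overlaps by 79 bases. The motif searched was CG, which reads the same on both strands. At least 20 CG pairs stood in 26.8% of the 27025 promoter windows of the table. Only 79.6% of the shared genes had a window, so a comparison of CG content between the classes of genes is void and is not given. Rapsn, Eppk1 and Hoxc13 are named below without a window.

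The ratios were centred near 0 and spread widely. The median log2 ratio over the 18653 genes was -0.12, with the middle of the genes between -0.63 (lower quartile) and 0.38 (upper quartile). A ratio of at least 1, that is a level at least 2-fold higher under H3K27me3, was found for 1936 genes, or 10.4% of the shared genes. A ratio of at most -1 was found for 2626 genes, or 14.1%. These shares are the background against which the gene lists are read. At 3 or above lay 310 genes, at -3 or below 332. The most lopsided genes went further, with 77 at 5 or above and 57 at -5 or below. Many of the milder calls rest on few reads. With at least 20 reads in the 2 sections together, 1669 of 11708 genes (14.3%) had a ratio of at least 1 and 2028 (17.3%) of at most -1. With at least 100 reads together, 799 of 2839 genes (28.1%) and 682 (24%) did.

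The genes past 2-fold took a large part of each section. The 1936 genes toward H3K27me3 held 41.9% of the H3K27me3 reads, against 5.84% of the H3K27ac reads. The 2626 genes toward H3K27ac held 6.41% of the H3K27me3 reads, against 39.8% of the H3K27ac reads. The genes were chosen by the ratio of these same reads, so a difference between the 2 shares is fixed by the choice. Ratios were also taken from odd and from even array columns, which interleave and so do not compare regions of the array. Over the 2839 genes with at least 100 reads, ratios from odd and from even array columns correlated at Pearson's 0.971, and over all 18653 genes at 0.742. Odd and even columns share embryo, library and processing, so the value describes counting error and not replication.

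**Figure D1:**
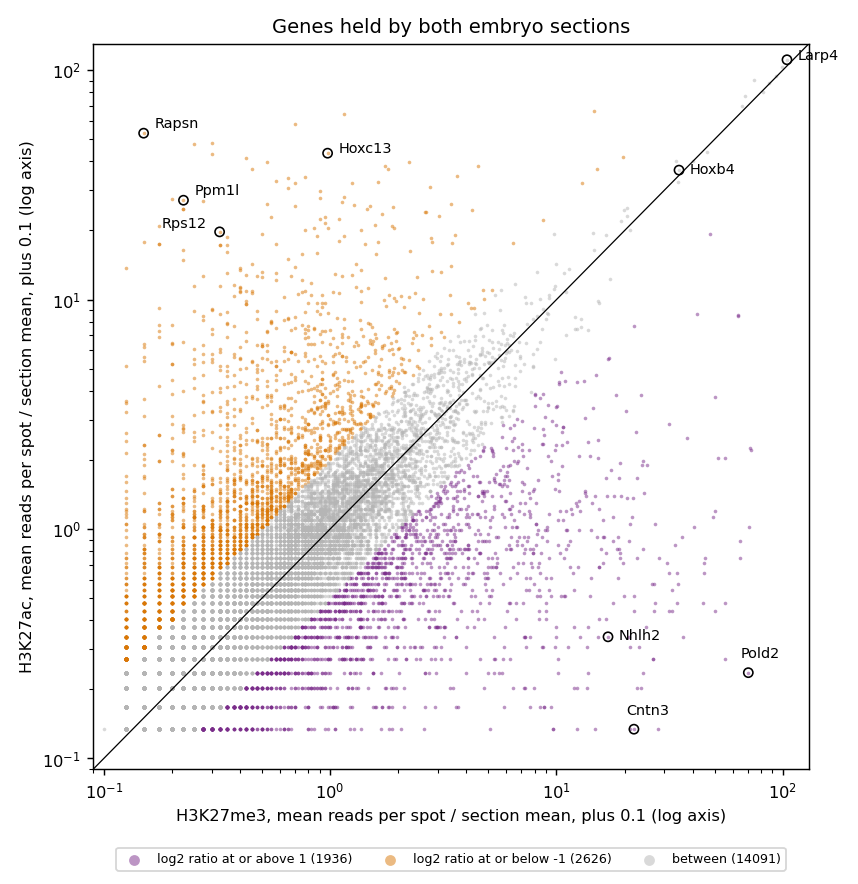
Relative level of each of the 18653 shared genes under H3K27me3 (horizontal, log axis) and H3K27ac (vertical, log axis), each with 0.1 added, coloured by log2 ratio; the line marks equal levels. Pold2 and Cntn3 lie far toward H3K27me3, Rapsn, Ppm1l, Hoxc13 and Rps12 far toward H3K27ac, and Larp4 and Hoxb4 are high under both.

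To name genes whose ratio does not hang on a few spots, genes were kept with at least 50 reads in the section where they were higher, in at least 10% of its spots, under 20% of them in 1 spot, and a ratio past 2-fold the same way without array row 48 and in odd and in even columns. This held for 996 genes toward H3K27me3 and 849 toward H3K27ac. Of the genes kept, 92 and 86 had at least 95% of their reads coincide, spot by spot, with those of a neighbouring gene, so that they cannot be told apart from it. The 12 highest and 12 lowest ratios among them are described next.

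The highest ratio was that of Pold2. This gene, which encodes a subunit of DNA polymerase delta, had 2813 reads in the H3K27me3 section, against 4 in the H3K27ac section, a log2 ratio of 8.22. Acrbp, which encodes a protein that binds proacrosin in sperm, had 1117 reads under H3K27me3, against 1 under H3K27ac (7.71). The reads were spread over nearly the whole tissue, in 253 of 254 spots for Pold2 and 241 for Acrbp. Cntn3, a contactin of the nervous system, had 876 reads under H3K27me3, against 1 under H3K27ac (7.36). Ankrd28, an ankyrin repeat protein and regulatory subunit of protein phosphatase 6, had 840, against 1 (7.30). The ratios of genes with a single H3K27ac read depend on the 0.1 that was added: without it Acrbp had a log2 ratio of 9.68 (7.19 to 14.98) and Cntn3 of 9.32 (6.84 to 14.63).

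Several of these genes are pairs that share reads. Hspa1l, a heat shock protein 70 of the testis, had 2222 reads under H3K27me3, against 5 under H3K27ac (7.68). Its neighbour Lsm2, a core protein of the spliceosomal U6 particle, had 2220, against 11 (6.87). The histone gene H2bc4 had 1997 reads under H3K27me3, against 10 under H3K27ac (6.82), and shared its H3K27me3 reads with H2ac6. Under H3K27ac, H2ac6 had 107 reads, so that its ratio was 3.74. The H3K27me3 reads of either pair may belong to a single member. The other genes stood alone. Elp5, a subunit of the Elongator complex that modifies tRNA, had 937 reads under H3K27me3, against 3 under H3K27ac (6.86). Adam6a, a testis-expressed gene of the ADAM family, had 904, against 3 (6.81). Gabra2, a subunit of the GABA receptor of neurons, had 588, against 1 (6.78). Pik3ap1, an adaptor of phosphoinositide 3-kinase in B cells, had 1453 reads, against 7 (6.75), and Acadm, the medium-chain acyl-CoA dehydrogenase of fat oxidation, 962 against 4 (6.67). The H3K27me3 sums of 8 of the 12 genes are lower bounds.

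The lowest ratio was that of Rapsn. This gene, whose protein clusters acetylcholine receptors at the neuromuscular junction, had 2 reads in the H3K27me3 section, against 1553 in the H3K27ac section, a log2 ratio of -8.47. Its reads lay in 246 of the 251 spots of the H3K27ac section. Lce1i, a protein of the cornified envelope of skin, had 6 reads under H3K27me3, against 1394 under H3K27ac (-7.58). Eppk1, the cytolinker epiplakin of epithelia, had 8, against 1407 (-7.33). Gjb1, the connexin of Schwann cells and liver, had 8, against 1261 (-7.17). All 4 thus had at least 1261 reads under H3K27ac and at most 8 under H3K27me3. Without the added 0.1, Rapsn had a log2 ratio of -10.05 (-13.10 to -8.20).

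The remaining genes of that end had fewer reads. Gm9639, a predicted gene, had 4 reads under H3K27me3, against 804 under H3K27ac (-7.11), and shared them with Gm19668. Ppm1l, a protein phosphatase, had 5, against 791 (-6.91). Car12, a membrane carbonic anhydrase, had 3, against 612 (-6.91). Irgm2, an interferon-induced GTPase, had 2, against 521 (-6.90). All 4 had at most 5 reads under H3K27me3. Septin10, a cytoskeletal GTPase, and Sowahc, whose promoter windows overlap, had 5 reads each under H3K27me3, against 723 each under H3K27ac (-6.78). Their reads coincided, so that they cannot be told apart. Guf1, a mitochondrial elongation factor, had 1 read under H3K27me3, against 398 under H3K27ac (-6.77). Wfdc17, a small secreted protein of macrophages, had 3, against 511 (-6.65), and shared them with Wfdc18. The H3K27ac sums of 5 of the 12 genes are lower bounds.

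The H3K4me3 section was then read for the same genes. Of the 12 genes toward H3K27me3, 11 were held by it, with 1 to 18 reads, and the highest was Lsm2. The 12 genes toward H3K27ac had 1 to 12 reads there, and the highest was Guf1. Neither end was therefore high under H3K4me3.

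**Figure D2:**
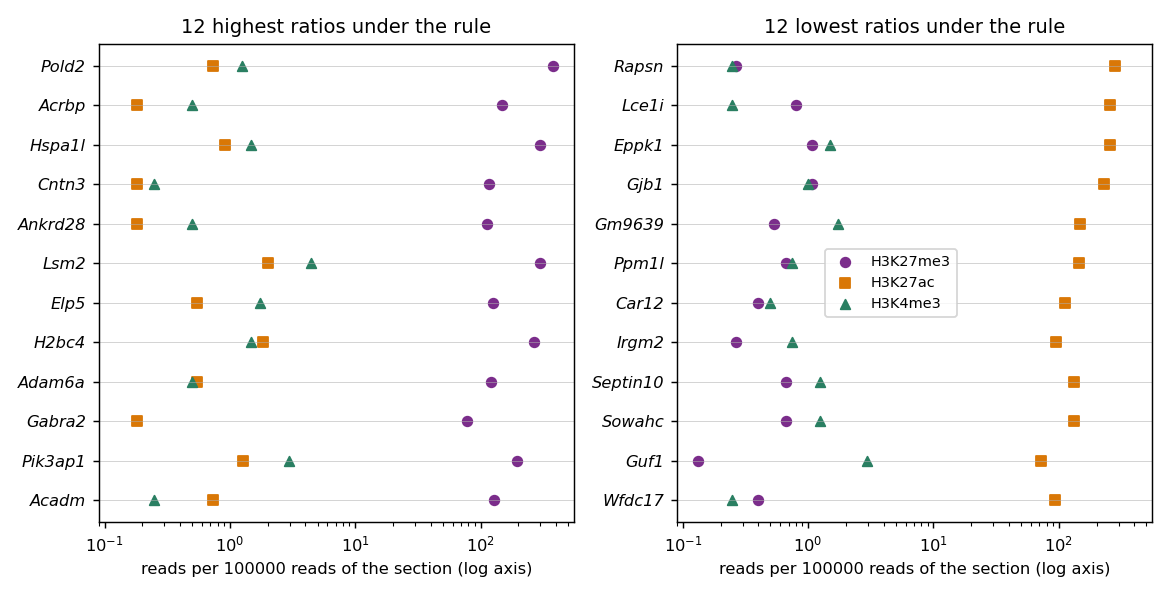
Reads per 100000 reads of the section (log axis) for the 12 genes with the highest (left) and lowest (right) ratios under the rule, in the H3K27me3, H3K27ac and H3K4me3 sections. In both panels the H3K4me3 points lie with the lower of the 2 other marks; Gabra2 was not held by the H3K4me3 section.

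The same held over all genes that met the rule. Among the 985 genes toward H3K27me3 that the H3K4me3 section held, the median relative level was 3.55 under H3K27me3, 0.580 under H3K27ac and 0.525 under H3K4me3, where 1 is the section's mean. The H3K4me3 level lay within 2-fold of the H3K27ac level for 742 of them (75.3%) and within 2-fold of the H3K27me3 level for 97 (9.85%). Among the 839 genes toward H3K27ac, the median was 0.650 under H3K27me3, 4.03 under H3K27ac and 0.612 under H3K4me3. Here the H3K4me3 level lay within 2-fold of the H3K27me3 level for 649 (77.4%) and within 2-fold of the H3K27ac level for 76 (9.06%). In both directions the genes were high in the section of 1 mark, and their H3K4me3 levels were mostly near that of the lower mark. The H3K4me3 section had no part in the choice of the genes. They were chosen for being high in 1 section, with at least 50 reads there, and low in another. An ordinary H3K4me3 level therefore lies near that of the lower mark by construction. The shares within 2-fold describe the genes and show no relation between the marks. By reads, the genes toward H3K27me3 held 12.7% of the H3K4me3 reads and the genes toward H3K27ac 11.3%.

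Without the further conditions, the H3K4me3 level was nearer the H3K27ac level for 81.2% of 1860 genes toward H3K27me3, and nearer the H3K27me3 level for 78.6% of 2512 genes toward H3K27ac. With at least 100 reads in the 2 sections together, the shares were 88.9% of 792 genes and 89.8% of 677. Genes past 2-fold reach that number mainly through the section where they are high, so an ordinary H3K4me3 level is by construction nearer the lower mark. These shares therefore describe the genes and show no relation between the marks.

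A group of genes was high under both marks. These genes were chosen after their values were seen. Larp4, an RNA-binding protein of the La family, had 4171 reads under H3K27me3, against 3248 under H3K27ac, and 3181 under H3K4me3, with a log2 ratio of -0.09. Dram2, a lysosomal membrane protein, had 3957 under H3K27me3, against 3031 under H3K27ac (-0.07). Cox6b1, a subunit of cytochrome c oxidase, had 3476, against 2566 (-0.01). Over the 12 genes described as high under both, which also include Hoxb4 and the actin-binding tropomyosin gene Tpm4, ratios ran between -0.29 and 0.07. Their H3K4me3 reads ran between 356 (Lzts2) and 3181 (Larp4). The sums of all 12 are lower bounds in both sections, so their ratios near 0 do not show equal levels. The highest count of each spot, summed over spots, was 4194 under H3K27me3 and 3264 under H3K27ac. The sums of Larp4 lie close to this limit of the decoding, so its ratio follows the limit. The marks were correlated over genes, as Spearman's rho of 0.723 over all 18653 genes and 0.393 over the 11708 with at least 20 reads together. With at least 50 reads together it was -0.0124, with at least 100 -0.378 and with at least 200 -0.602. The limit is set on the sum of both sections, which by itself favours genes high in only 1 of them. Genes are not independent replicates.

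The Hox genes, regulators of regional identity from head to tail that lie in 4 clusters, did not part as a group. Of the 40 held, counting Evx1 and Evx2 at the cluster ends, 7 (17.5%) had a ratio of at least 1 and 4 (10%) of at most -1, against 10.4% and 14.1% over all genes. Their median log2 ratio was -0.16, against -0.12. Hox genes carried more reads than most genes, with a median of 38.5 under H3K27me3 and 29 under H3K27ac. With at least 20 reads, 6 and 4 of 37 were past 2-fold, against 14.3% and 17.3% of all such genes. With the deposited values in place of the recovered reads, 8 Hox genes rather than 4 had a ratio of at most -1, and the Hox median lay 0.24 above that of all genes rather than 0.05 below it.

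Single Hox genes ranged further than the clusters, whose medians lay between -0.61 (HoxC) and 0.03 (HoxB). Hoxc13, the last gene of its cluster and a regulator of hair and nail, had 35 reads under H3K27me3, against 1270 under H3K27ac, a log2 ratio of -5.48. Its H3K27ac reads lay in 244 of 251 spots, and it had 16 reads under H3K4me3. Hoxc12, its neighbour in the cluster, had 538 reads under H3K27me3, against 38 under H3K27ac (3.28). The adjacent genes thus lay at opposite ends of the range of the Hox genes. Without the pseudocount the intervals were -6.16 to -5.15 for Hoxc13, whose H3K27ac sum is a lower bound, and 2.90 to 3.89 for Hoxc12. Hoxc4, at the other end of the cluster, had 257 reads under H3K27me3, against 29 under H3K27ac (2.58). Hoxc9 had 144, against 153 (-0.53).

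The HoxB cluster had 3 of 10 genes (30%) at or above 1 and 0 at or below -1, against 10.4% and 14.1% of all genes. Its genes had more reads than most, with medians of 98 under H3K27me3 and 53 under H3K27ac. Over all genes with at least 20 reads together the shares were 14.3% and 17.3%, and with at least 100 they were 28.1% and 24%. The 30% is thus near the share of well-covered genes. Hoxb5 had 301 reads under H3K27me3, against 37 under H3K27ac (2.48). Hoxb1, used in the hindbrain, had 98 reads, against 18 (1.83), and Hoxb9, a gene of the trunk, 188, against 38 (1.78). Between them stood Hoxb4, with 1388 reads under H3K27me3, against 1071 under H3K27ac, and 767 under H3K4me3, a log2 ratio of -0.08. Its H3K27me3 and H3K27ac sums are lower bounds, so this ratio does not show equal levels. Among the Hox genes Hoxb4 had the most reads under H3K27me3 and H3K4me3 and, after Hoxc13, under H3K27ac. Hoxb6 had 489 reads, against 215 (0.73), and Hoxb8 75, against 103 (-0.87).

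In the HoxD cluster Hoxd3 lay toward H3K27ac. It had 78 reads under H3K27me3, against 302 under H3K27ac (-2.34), and 350 under H3K4me3, so that it was high under both active marks. Hoxa3, by contrast, had 550 reads under H3K27me3, against 212 under H3K27ac (0.92). Hoxd10 had 66, against 21 (1.10), and Hoxa7 15 against 3 (1.23). The H3K4me3 section was high on other genes: Evx2 had 196 reads there, with 15 under H3K27me3 and 10 under H3K27ac, and Hoxc10 had 150, with 20 and 26.

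**Figure D3:**
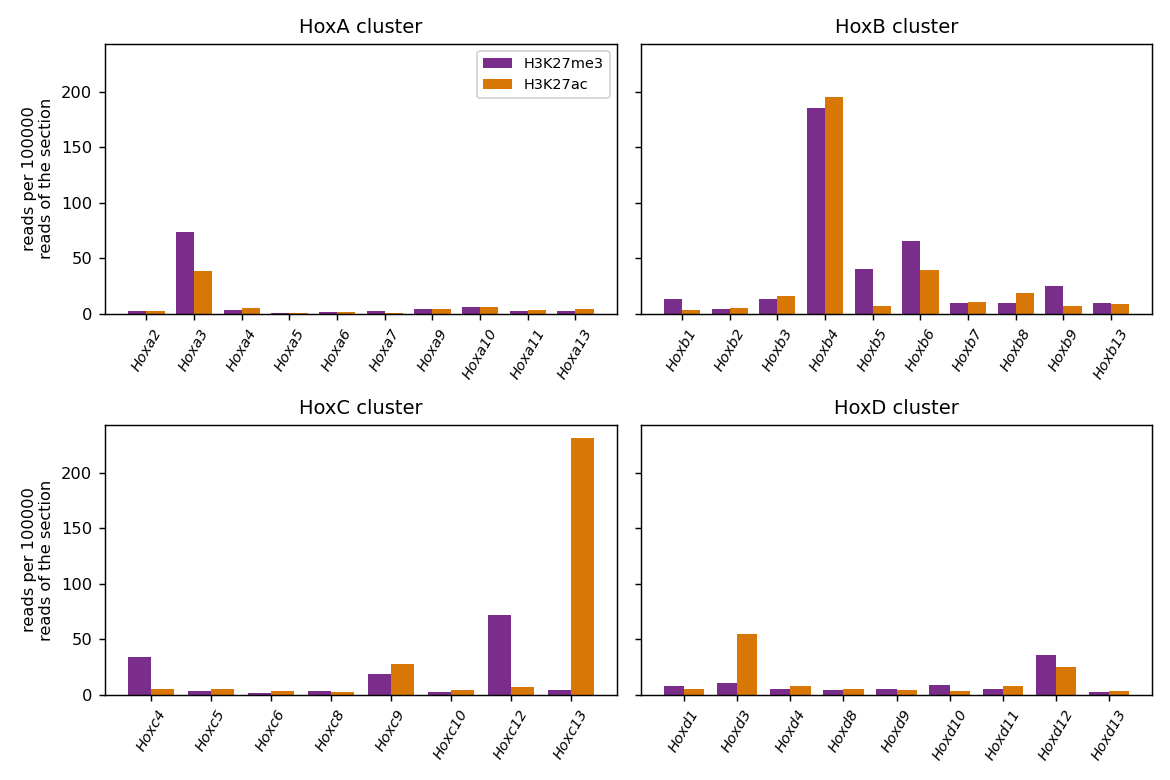
Reads per 100000 reads of the section for the Hox genes reported here from each cluster, in cluster order, as bars for H3K27me3 (left of each pair) and H3K27ac (right). Hoxb4 is high under both marks, Hoxc13 stands out under H3K27ac and its neighbour Hoxc12 under H3K27me3.

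Of 142 developmental transcription factors known from Polycomb domains in stem cells, 15 (10.6%) had a ratio of at least 1 and 25 (17.6%) of at most -1, near the 10.4% and 14.1% of all genes, and 58 (40.8%) lay above the median of all genes. Their median was -0.27, against -0.12. Among the members toward H3K27me3, Gbx1, a homeobox gene of the spinal cord and brain, had 129 reads under H3K27me3, against 12 under H3K27ac (2.70). Members with the lowest ratios were Otx1, a forebrain regulator, with 7 reads under H3K27me3, against 183 under H3K27ac (-4.53), and Sox14, of interneurons, with 19, against 378 (-4.50). Lmx1b, which sets the dorsal side of the limb, had 17, against 208 (-3.78), and Tfap2a, a regulator of neural crest, 176, against 1118 (-3.09). In the H3K4me3 section, where the median gene had 7 reads, Otx1 had 4, Sox14 10, Lmx1b 6 and Tfap2a 41. Gbx2, the closest relative of Gbx1, lay on the other side from it, with 18 reads under H3K27me3, against 44 under H3K27ac (-1.54).

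Among secreted signals and their antagonists, 3 of 46 had a ratio of at least 1 and 7 of at most -1. Fst, which binds activin and blocks it, had 476 reads under H3K27me3, against 8 under H3K27ac (5.01). Fgf8, a signal of the limb ridge and the midbrain border, had 48, against 7 (1.94). Bmp6 had 16, against 70 (-2.32), and Bmp2 4, against 23 (-2.15), both growth factors of the BMP family. The shares, 6.52% and 15.2%, are near those of all genes on the H3K27ac side and lower on the other.

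The genes of the machinery that writes and reads the marks were taken next. Of 34 genes for Polycomb subunits and H3K27 demethylases, 2 (5.88%) had a ratio of at least 1 and 7 (20.6%) of at most -1. Over all genes the shares were 10.4% and 14.1%. Of the PRC2 subunits, the methyltransferase Ezh2 had 13 reads under H3K27me3, against 9 under H3K27ac (0.06), and Suz12 10 against 6 (0.20). Both lay within 2-fold, whereas the related methyltransferase Ezh1 had 8, against 27 (-1.77), and the accessory subunit Phf1 38, against 60 (-1.03). The lowest were Pcgf3, a PRC1 subunit, with 19 reads under H3K27me3, against 155 under H3K27ac (-3.23), and Cbx2, which reads H3K27me3, with 28, against 198 (-3.10). Cbx8, another reader of the same family, had 30, against 118 (-2.28). Pcgf5 and Bmi1, both PRC1 subunits, went the other way, with 156 reads under H3K27me3, against 28 under H3K27ac (1.92), for Pcgf5 and 245, against 53 (1.70), for Bmi1. The reads of Bmi1 coincided with those of its neighbour Commd3.

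Of 18 genes for acetyltransferases, acetyl readers and deacetylases, 2 (11.1%) had a ratio of at least 1 and 4 (22.2%) of at most -1. Over all genes the shares were 10.4% and 14.1%. Hdac3, a deacetylase, had 4 reads under H3K27me3, against 60 under H3K27ac (-3.43), which coincided with those of Rell2. Kat2a, an acetyltransferase, had 8, against 36 (-2.15). Sin3a, the scaffold of a deacetylase complex, had 52, against 12 (1.46), and Brd2, an acetyl reader, 71, against 21 (1.20). Ep300, which encodes p300, had 41, against 30 (0.00).

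Genes that nearly all cells use had medians near the -0.12 of all genes. Of 76 genes for cytosolic ribosomal proteins, 4 (5.26%) had a ratio of at least 1 and 10 (13.2%) of at most -1, with a median of -0.14. Over all genes the shares were 10.4% and 14.1%. Rps12 had 9 reads under H3K27me3, against 575 under H3K27ac (-5.92), and Rps14 1, against 40 (-3.55). Rpl21 had 214, against 18 (2.93), and Rpl29 217, against 24 (2.59). These genes had few reads in both sections, with medians of 10 under H3K27me3 and 9 under H3K27ac, below the 15 and 12 of all shared genes. Of 66 other housekeeping genes, 5 (7.58%) had a ratio of at least 1 and 9 (13.6%) of at most -1, with a median of -0.13. With at least 20 reads, the share past 2-fold toward H3K27ac was larger in both lists, as it was over all genes. A limit on the sum of both sections by itself favours genes high in only 1 of them. Of 41 ribosomal genes 3 (7.32%) were at or above 1 and 8 (19.5%) at or below -1. Of 33 housekeeping genes 2 (6.06%) and 8 (24.2%) were, against 14.3% and 17.3% of all such genes. The medians were then -0.03 and 0.04, against -0.11. Eif4g2, a translation initiation factor, had 960 reads under H3K27me3, against 21 under H3K27ac (4.88). Actb, beta-actin, had 41, against 9 (1.47), while its relative Actg1, gamma-actin, had 7, against 134 (-4.09). Cox4i1, of cytochrome c oxidase, had 5, against 77 (-3.60), in reads shared with its neighbours Emc8 and Gm27021.

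Replication-dependent histone genes, of near-identical sequence, are uncertain where reads could map to several copies. Of 54 held, 6 (11.1%) had a ratio of at least 1 and 5 (9.26%) of at most -1, against 10.4% and 14.1% of all genes. The H3K27me3 reads lay in a few of them. The pair H2bc4 and H2ac6 was described above, and H1f6, the linker histone of testis, had 1353 reads under H3K27me3, against 11 under H3K27ac (6.16), in reads shared with H4c3. At the other side, H4c1 had 13, against 36 (-1.65), and H3c1 13, against 35 (-1.61).

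**Figure D4:**
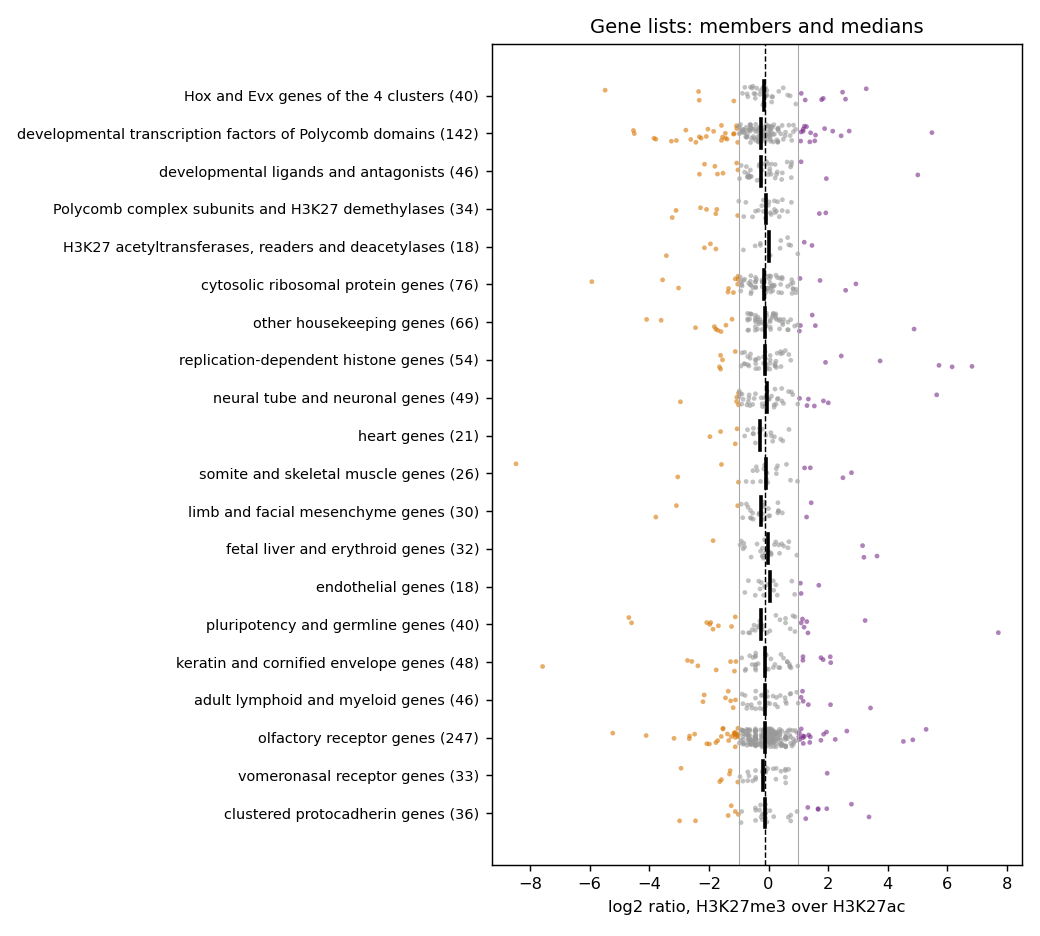
Log2 ratio of H3K27me3 over H3K27ac for each member of 20 gene lists (points, with the number held in brackets), the median of each list (thick bar), the median of all genes (dashed line) and ratios of 1 and -1 (thin lines). The medians lie between -0.30 and 0.06, near the -0.12 of all genes, while single members of most lists lie far to both sides.

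Genes of the embryo's tissues were split in the same manner. Of 49 genes of the neural tube and neurons, 7 (14.3%) had a ratio of at least 1 and 5 (10.2%) of at most -1. Over all genes the shares were 10.4% and 14.1%. Nhlh2, a bHLH factor of developing neurons, had 672 reads under H3K27me3, against 7 under H3K27ac (5.64). Ebf2, a factor of neuronal differentiation, had 34, against 4 (2.01). Pou3f2, which drives neurogenesis, lay at the other side with 39, against 241 (-2.95), and Fabp7, of radial glia, had 22, against 37 (-1.07).

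Of 26 somite and skeletal muscle genes, 4 (15.4%) had a ratio of at least 1 and 4 (15.4%) of at most -1. Over all genes the shares were 10.4% and 14.1%. Myf6, a myogenic regulator, had 249 reads under H3K27me3, against 24 under H3K27ac (2.78). Lfng, which tunes Notch in the segmenting mesoderm, had 419, against 52 (2.49). Mesp2, which sets somite polarity, lay at the other side with 24, against 166 (-3.04), as did Rapsn. Heart genes gave 0 of 21 at or above 1 and 4 at or below -1, with a median of -0.30. Des, the muscle filament desmin, had 31, against 97 (-1.96), and Myl3, a myosin light chain, 13, against 35 (-1.61). The highest in the heart list were Actc1, cardiac actin, with 31, against 13 (0.69), and Csrp3, with 34, against 17 (0.48). These are small numbers of reads. In the 15 heart genes with at least 20 reads 3 (20%) lay at or below -1, near the 17.3% of all such genes.

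Of 30 limb and facial genes, 2 (6.67%) had a ratio of at least 1 and 3 (10%) of at most -1, against 10.4% and 14.1% of all genes. Col2a1, the collagen of cartilage, had 51 reads under H3K27me3, against 12 under H3K27ac (1.43), and Sall1, a zinc finger factor of limb and kidney, 52, against 14 (1.28). Lmx1b and Tfap2a, given above, were the lowest. Of 32 fetal liver and erythroid genes, 3 (9.38%) had a ratio of at least 1, near the 10.4% of all genes. At or below -1 lay 1 (3.1%), against 14.1%. Slc4a1, the anion exchanger of red cells, had 301 reads under H3K27me3, against 15 under H3K27ac (3.64). Hba-a1, an alpha-globin, had 359, against 26 (3.20), in reads that coincided with those of its copy Hba-a2 and of Hbq1b. The gene at or below -1 was Nfe2, a factor of red cells and megakaryocytes, with 2, against 13 (-1.86). Of the members with at least 20 reads, the lowest were Gfi1b, a factor of red cell precursors, with 22, against 33 (-0.92), and Afp, the fetal liver protein, with 9, against 14 (-0.83). Of 18 endothelial genes, 3 (16.7%) had a ratio of at least 1 and 0 of at most -1. Fli1, an ETS factor of endothelium and blood, had 176, against 38 (1.69), and Eng, a TGF-beta coreceptor, 22, against 6 (1.09).

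Genes that most cells of the embryo do not use gave no common lean toward the repressive mark. Of 247 olfactory receptor genes held, 19 (7.69%) had a ratio of at least 1 and 26 (10.5%) of at most -1, against 10.4% and 14.1% of all genes. Their median was 4 reads in each section, and with so few reads the added 0.1 draws ratios toward 0. With at least 20 reads, 15 of 66 (22.7%) had a ratio of at least 1 and 15 (22.7%) of at most -1. Of all such genes 14.3% and 17.3% did. The limit on the sum of both sections by itself favours genes high in only 1 of them, above all in a list with so few reads. The larger shares therefore show no property of the receptors. Single receptors stood far out. Olfr374 had 791 reads under H3K27me3, against 12 under H3K27ac (5.28), and Olfr172 345, against 6 (4.84). Olfr1247 had 2, against 161 (-5.22), and Olfr115 1, against 60 (-4.10). Of 33 vomeronasal receptor genes, 1 (3.03%) had a ratio of at least 1 and 6 (18.2%) of at most -1. The lowest was Vmn1r58, which had 6 reads under H3K27me3, against 53 under H3K27ac (-2.93). Receptor genes have near-identical copies, and the counting could have split their reads.

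Of 40 pluripotency and germline genes, 7 (17.5%) had a ratio of at least 1 and 9 (22.5%) of at most -1, against 10.4% and 14.1% of all genes. Beside Acrbp, the highest was Tex19.1, a gene of germ cells and placenta, with 266 reads under H3K27me3, against 18 under H3K27ac (3.24), and 352 under H3K4me3. Tnp2 and Prm2, which pack DNA in sperm, lay lowest with 13, against 317 (-4.68), and 14, against 315 (-4.59), in reads that coincided. Pou5f1, the pluripotency factor Oct4, had 36, against 112 (-1.97). Of 48 keratin and cornified envelope genes, 6 (12.5%) had a ratio of at least 1 and 8 (16.7%) of at most -1, near the shares of all genes. Below Lce1i, the next lowest was Krt4, with 7, against 50 (-2.72), and the highest were Lce1a2, with 42, against 5 (2.09), and Krt71, with 30, against 3 (2.07). Of 46 adult lymphoid and myeloid genes, 6 (13.0%) and 7 (15.2%) were past 2-fold, also near those shares. They were led by Il2, with 112 reads under H3K27me3, against 5 under H3K27ac (3.42). On the other side the neutrophil protease Prtn3 led, with 7, against 34 (-2.20).

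Clustered protocadherins, which give neurons their surface identity, had 7 of 36 (19.4%) at or above 1 and 6 (16.7%) at or below -1. Over all genes the shares were 10.4% and 14.1%. Pcdhgc4 had 108 reads under H3K27me3, against 5 under H3K27ac (3.37), which coincided with those of Pcdhgc5. Pcdhga2 had 1, against 26 (-2.98), and Pcdhb16 10, against 53 (-2.45). Genes of the family's alpha and gamma clusters share exons and overlap, so their reads cannot be assigned with certainty.

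Neighbouring genes were hardly alike beyond shared reads. Over 18603 pairs of adjacent genes in the RefSeq order, the log2 ratios correlated at Pearson's 0.0816. Without the pairs whose reads coincided the value was 0.0265 over 18127 pairs. With at least 20 reads for each gene it was 0.125 over 7863 pairs and 0.0382 over 7561. For genes with 1 gene between them it was 0.00144.

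Within a section, the reads of most genes followed the spots' totals. As a measure, the squared differences between a gene's reads in a spot and those expected from the spot's total were summed, each divided by the expected number, and divided by the degrees of freedom, so that 1 is counting noise. Over the 1262 genes with at least 100 reads in the H3K27me3 section the median was 1.03, and 25 genes exceeded 1.5. Over the 844 in the H3K27ac section the median was also 1.03, and 15 exceeded 1.5. The 12 named genes toward H3K27me3 ran between 0.651 and 1.23 and the 12 toward H3K27ac between 0.795 and 1.27. The sums of 8 and 5 of them are lower bounds. Highest counts that could not be decoded can lower the measure, so their values are not strictly comparable with 1. By array row, Pold2 had 20.6 reads per 10000 in row 48 of the H3K27me3 section, and 34.3 to 44.9 in the other 21 rows. Rapsn had 25.4 in row 48 of the H3K27ac section, and 21.8 to 45.5 in the other 21.

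Several of the exceptions had their excess in the same array row of every section. Ifi47, an interferon-induced GTPase, had 227 of its 611 H3K27me3 reads in array row 48, where 31.6 were expected. In the H3K27ac section it had 56 of 281 there, with 4.03 expected, and in the H3K4me3 section 168 of 336, with 16.1 expected. Row 48 is the last row that the H3K27ac section covered (rows 27 to 48), while it lies in the middle of the H3K27me3 section (rows 33 to 54) and of the H3K4me3 section (rows 39 to 60). Tmem8b, a membrane protein, had 124 of 219 reads in that row under H3K27me3, with 11.3 expected, and 34 of 121 under H3K27ac, with 1.74 expected. Flcn, the folliculin tumour suppressor, had 144 of 356 under H3K27me3, with 18.4 expected, and 39 of 238 under H3K27ac, with 3.41 expected. An excess of at least 3-fold in that row was found for 29 of the 1262 genes under H3K27me3 and 9 of the 844 under H3K27ac, and for 6 of the 332 genes with at least 100 reads under both.

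The row moved the ratios of such genes. Tmem8b had a log2 ratio of 0.40 with row 48 and of -0.26 without it. Lrrc41, a substrate adaptor of ubiquitin ligases whose reads coincided with those of Uqcrh, had 0.63 with it and 0.01 without. Ifi47 had 0.66 with it and 0.37 without. None of these passed 2-fold either way, and leaving out the row moved all 124 named genes by less than their counting error. The row held 5.17% of the H3K27me3 reads and 1.43% of the H3K27ac reads.

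**Figure D5:**
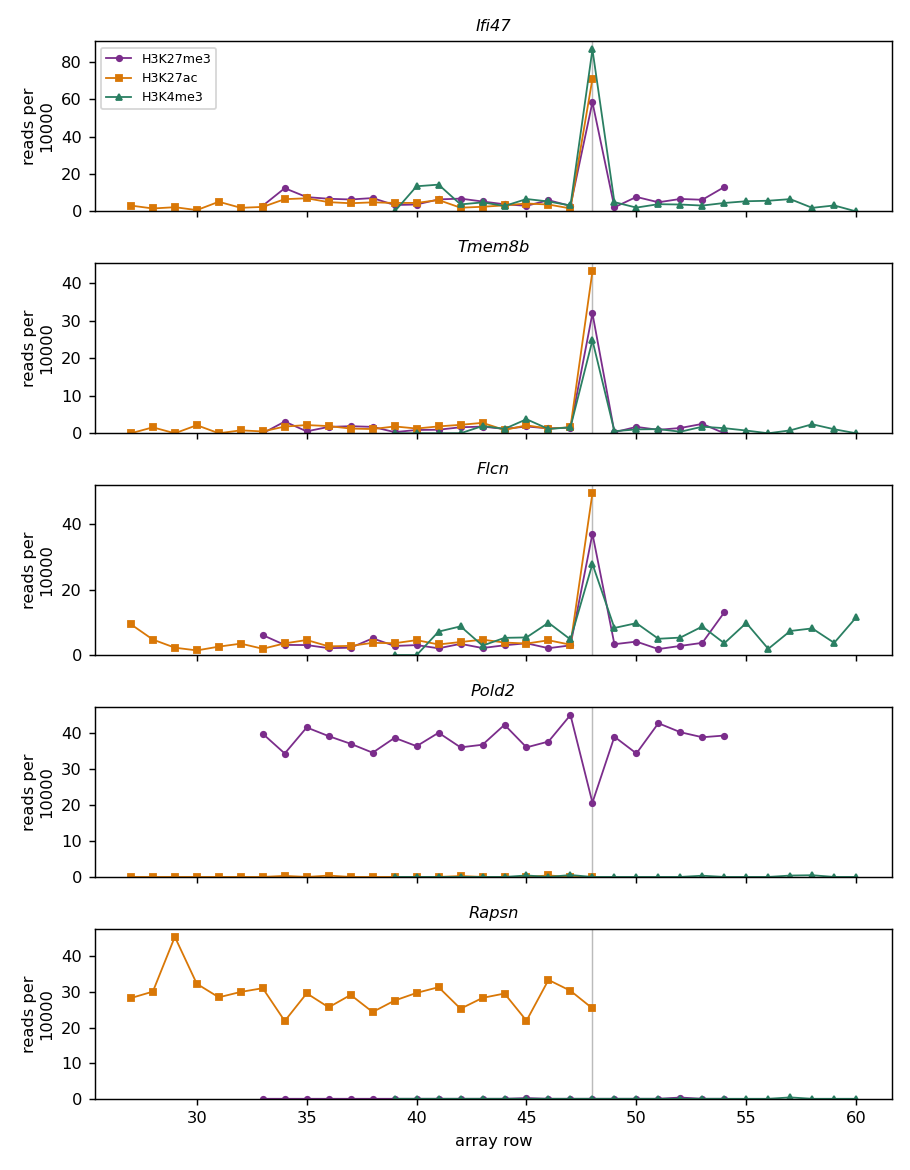
Reads per 10000 reads of each array row for 5 genes in the H3K27me3, H3K27ac and H3K4me3 sections, with row 48 marked by a grey line. Ifi47, Tmem8b and Flcn peak in row 48 of every section, with Ifi47 at 58.5 (H3K27me3), 71.1 (H3K27ac) and 86.8 (H3K4me3), while Pold2 and Rapsn are spread over all rows of the section where they are high.

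A few genes were uneven in another manner. Runx3, a factor of sensory neurons and cartilage, had 198 of 366 reads (54.1%) in array columns up to 20 under H3K27me3, where those columns held 38.0% of all reads, and 154 of 295 (52.2%) under H3K27ac, where they held 34.3%. Fhl3, a LIM-domain protein of muscle, had 51.1% of its reads there under H3K27me3 and 46.2% under H3K27ac. Hoxc9 had 34.7% under H3K27me3 and 51.0% under H3K27ac. These 3 genes had ratios within 2-fold, at -0.14 for Runx3, -0.10 for Fhl3 and -0.53 for Hoxc9. The sections may lie differently on their arrays, so columns are not matched positions in the embryo. Rnf40, a ubiquitin ligase for histone H2B, and its neighbour Ccdc189 had an excess in row 41 under H3K27me3, where Rnf40 had 88 of its 102 reads, with 7.17 expected. Its H3K27ac reads were 700, of which 132 lay in row 41, with 62.6 expected, and its ratio was -3.18.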

How the data were processed

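The authors deposited signal values for each gene in each spot, quantile-normalised as the file naming states. The tools Bowtie2, featureCounts and MACS2 and the builds hg19 and mm9 appear in the list of tools per the submitters' processing notes. Their versions and roles were not given in the sources used here. In each embryo section the 500 highest values of every spot formed 1 common list times a factor per spot, and genes of equal count were ranked in the gene order of the control paw section. Each fall in that order along the sorted values marks 1 further read, which gave the recovered reads. The exact zone of a spot ended where fewer than 5 genes held a count, and sums with over 10% of reads beyond it are lower bounds. The recovered total was 94.8% (H3K27me3) and 94.0% (H3K27ac) of the list's total, and the highest rank summed to 4194 of 17300 and 3264 of 13677. Of the deposited values above 0, 53.3% and 48.1% belonged to genes without a read. Across genes, Spearman's rho with the gene order was 0.356 and 0.330 for deposited values and -0.0793 and -0.0618 for recovered reads. The decoding was tested on simulated data.

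Members and gene lists were chosen with earlier results of these data known. The fixed design named the 12 highest and 12 lowest ratios under the stated conditions, the 3 highest and 3 lowest of all genes, and in each list the 2 highest and 2 lowest members with at least 20 reads. Some genes that this rule names are not reported here. Other genes named in the text, the genes high under both marks, the genes uneven over spots and the promoters shown were chosen after their values were seen. Of the 18653 genes, 18545 matched RefSeq by symbol, 83 by a synonym and 25 not at all. Read sums have exact Poisson intervals and ratios Clopper-Pearson intervals. Python 3.11.15, numpy 2.4.6, pandas 2.3.3, scipy 1.17.1 and matplotlib 3.10.9 were used. PCR duplicates may remain among the reads, so intervals may be too narrow.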

Additional observations from a re-analysis of the deposited data

How the results depend on the processing

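Of the 124 named genes, those past 2-fold kept their direction under all 13 alternatives. This is partly fixed by the choice of genes. The 12 highest and 12 lowest had to pass 2-fold the same way without array row 48 and in odd and in even columns. For them these alternatives could not reverse the direction. Others were chosen as the highest and lowest members of their lists. All 124 moved by less than counting error without array row 48, with a pseudocount of 0.02 or with the mean of spot shares. The limit of at least 20 reads leaves each gene's ratio as it was, so it could move none of them. The counting error is that of the ratio without a pseudocount, toward which a pseudocount of 0.02 shifts ratios. Nor can a changed pseudocount turn the direction of a ratio. Under the other alternatives between 3 and 64 of them moved by more, the most with a pseudocount of 1. The number at or above a ratio of 1, 1936 as reported, became 741 with a pseudocount of 1 and 3488 with a mean that left out each gene's 5% highest spots. The number at or below -1, 2626 as reported, became 755 with a pseudocount of 1. Leaving out the highest spots also turned the split of calls, to 18.7% of genes at or above 1 and 15.5% at or below -1, against 10.4% and 14.1%, and moved the median of all genes to 0.00. The share of Polycomb-domain factors above the median of all genes, 40.8%, was then 30.3%, although the list's median and that of all genes were both 0.00, since members level with the median do not count as above it. The share of H3K4me3 levels nearer H3K27ac among genes toward H3K27me3, 88.9%, was 91.5% with a pseudocount of 1, 86.5% in odd columns and 86.3% with scaling by the median. The share nearer H3K27me3 among genes toward H3K27ac, 89.8%, was 93.5% with a pseudocount of 1 and 87.2% in odd columns. The cause of these shifts was not tested, except that a larger pseudocount shrinks ratios by construction. The Hox median lay 0.05 below that of all genes as reported, 0.24 above it with deposited values, 0.22 above with the order taken off and 0.06 above in odd columns. An alternative chosen after seeing the data set counts beyond the exact zone from the common list, which restored 98.8% (H3K27me3) and 98.4% (H3K27ac) of the list's total, and gave 1929 and 2542 calls. No paired analysis was possible because each mark had 1 section and the labels number no replicates. With a median of 14 and 12 reads per gene, differences of lowly covered genes were not detectable at this depth.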
